A study of Mus musculus with 6 samples.

Results

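The placental prolactin and proliferin genes measured here were Prl8a9 and the proliferin genes Prl2c2, Prl2c3 and Prl2c5, with Prl2c4 as a further name, in mouse HACA cells that carried a hairpin against Snail (shSnail), Loxl2 (shLoxl2) or GFP (shGFP). Their probes were found by current and older gene names among the spots of the scanner files that are not controls, and 2 of the 20868 probes on the array carried such a name. Probe A_51_P509999, listed under the older name Prlpc2, measured Prl8a9, and the files place it at chr13:27565714-27565773 of the mm8 build. Probe A_51_P312782, listed under the older name Plf2, lies at chr13:12852013-12852072 of mm8, and the files assign it to 4 RefSeq transcript accessions. The RefSeq gene table places 3 of these in Prl2c2, Prl2c3 and Prl2c5, does not list the other one, and gives Prl2c4 as a synonym of Prl2c3. The proliferin genes therefore share 1 measurement and could not be told apart, and it is called the proliferin probe here. An exon annotation of the mm8 build was not used here. The genes were chosen by name with their fold changes on these same arrays known, and Prl8a9 and the proliferins were selected on their low values in shSnail cells, so their own values are a description and carry no p-value.

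Prolactins are secreted hormones of a family that in the mouse has expanded into a cluster of genes, most of which are active in the placenta. The proliferins are made by trophoblast giant cells, act on growing blood vessels and can bind the receptor for insulin-like growth factor 2. They were also found in proliferating fibroblast lines, where serum and growth factors induce them. Prl8a9 encodes prolactin-like protein C-beta, a placental member that is not a classical ligand of the prolactin receptor. Snail, encoded by Snai1, is a transcriptional repressor of epithelial genes, and Loxl2 is a lysyl oxidase.

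The series held 6 two-colour arrays. Each had RNA of silenced cells in 1 channel and RNA of shGFP cells, the control hairpin, in the other. The 2 shSnail samples were each hybridised once, labelled with Cy5. The 2 shLoxl2 samples were each hybridised with both dye orientations, in Cy5 and in Cy3, which gave 4 arrays. The labels name the hairpins only, with no clone, vector, tissue of origin or culture date. Nothing in them tells separate cultures from repeat extractions of 1 culture, and errors and p-values measure only the spread between these samples, which may be technical. Ratios are given on the log2 scale as silenced cells over shGFP cells, after background correction and normalisation, and a value of 1 is a 2-fold difference. The shGFP RNA counts as 1 control, whose own spread is not in the errors.

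RefSeq promoters, running from upstream of each gene's start into its beginning, were available for Prl8a9, Prl2c3 and Prl2c5 on the GRCm38.p6 build. They are printed to show how alike the proliferin genes are just upstream of the transcripts that 1 probe cannot separate. The Prl8a9 promoter is at chr13:27564557-27564856 on the minus strand, that of Prl2c3 at chr13:12800030-12800329 on the minus strand and that of Prl2c5 at chr13:13182466-13182765 on the plus strand. Capitals mark matches to the AP-1 type motif TGANTCA, which reads the same on both strands, and to the GATA type motif AGATAA on either strand.
Prl8a9: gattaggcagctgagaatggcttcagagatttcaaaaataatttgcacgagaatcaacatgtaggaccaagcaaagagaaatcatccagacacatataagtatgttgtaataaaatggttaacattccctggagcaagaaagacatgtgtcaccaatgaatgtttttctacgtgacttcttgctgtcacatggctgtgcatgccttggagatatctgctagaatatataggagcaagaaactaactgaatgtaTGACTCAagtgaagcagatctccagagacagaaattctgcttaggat
Prl2c3: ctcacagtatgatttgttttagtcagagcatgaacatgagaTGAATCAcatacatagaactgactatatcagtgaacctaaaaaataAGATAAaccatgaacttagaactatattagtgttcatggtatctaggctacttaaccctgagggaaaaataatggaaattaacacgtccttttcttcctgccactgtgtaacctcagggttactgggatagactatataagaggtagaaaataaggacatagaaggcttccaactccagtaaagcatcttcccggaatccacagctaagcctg
Prl2c5: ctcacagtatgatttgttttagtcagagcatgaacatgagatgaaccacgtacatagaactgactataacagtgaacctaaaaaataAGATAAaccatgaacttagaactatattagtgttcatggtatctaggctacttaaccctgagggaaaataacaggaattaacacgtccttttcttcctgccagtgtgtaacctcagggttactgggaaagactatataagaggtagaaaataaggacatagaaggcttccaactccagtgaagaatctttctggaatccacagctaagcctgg

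The Prl2c3 and Prl2c5 promoters were 95.3% identical over 301 aligned columns, with 12 mismatches and 2 gap columns. The Prl8a9 promoter was 54.0% identical to that of Prl2c3 and 52.8% to that of Prl2c5 in the same kind of global alignment. The AP-1 type motif began 209 bases before the start of Prl2c3 and 3 bases after that of Prl8a9, and the Prl2c5 window held none. The GATA type motif began 163 bases before the start in both proliferin promoters. Neither of the proliferin windows nor the Prl8a9 window held the Snail type E-box CAGGTG on either strand. Across the 32851 promoters of the RefSeq table, 7.81% held the AP-1 type motif, 11.2% the GATA type motif and 20.2% the E-box. Of the 25 prolactin family promoters in that table, these windows included, 9 held the AP-1 type motif, 12 the GATA type motif and 5 the E-box. The AP-1 and GATA type matches are thus not particular to these genes within the family. A match describes letters in the window, not a bound site.

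**Figure D1:**
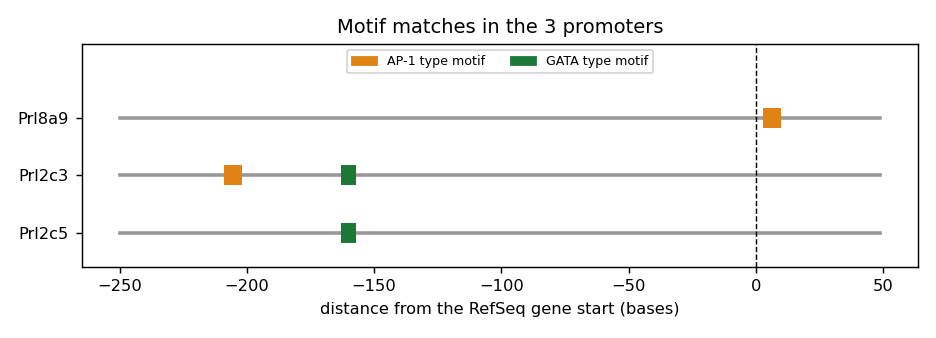
Positions of motif matches (coloured boxes) in the promoter windows of Prl8a9, Prl2c3 and Prl2c5, with distance from the RefSeq gene start in bases on the x axis and the start as a dashed line. Both proliferin windows have the GATA type match at 163 bases before the start, and the AP-1 type match is in the Prl2c3 and Prl8a9 windows.

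Prl8a9 RNA was far lower in shSnail cells and higher in shLoxl2 cells than in shGFP cells, with little spread between arrays. The log2 ratio was -4.38 in shSnail replicate 1 and -4.48 in shSnail replicate 2. In shLoxl2 replicate 1 it was 1.93 with the silenced RNA in Cy5 and 1.92 with it in Cy3, and in shLoxl2 replicate 2 it was 2.10 in Cy5 and 1.88 in Cy3. Both dye orientations thus gave nearly the same value, and no shSnail array came near any shLoxl2 array.

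The mean spot intensity of the Prl8a9 probe was 251 in the shSnail channel of replicate 1, against 4129 in its shGFP channel, and 253 against 4086 on the array of replicate 2. In the shLoxl2 channels it was 48200 and 50786 in Cy5 and 18059 and 9014 in Cy3. The shGFP channels beside these read 5410 and 7982 in Cy3 and 11341 and 8846 in Cy5. The shSnail spots were still well above background, at 3.48 and 3.41 times the local background, and no Prl8a9 spot was saturated.

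After normalisation across channels, the Prl8a9 level lay between 7.98 and 8.16 on the log2 scale in the 2 shSnail channels. It lay between 14.43 and 14.67 in the 4 shLoxl2 channels, and between 12.46 and 12.61 in the 6 shGFP channels, with a median of 12.56. The order was therefore shLoxl2, shGFP, shSnail. The shLoxl2 channels repeat the same samples and the shGFP channels the same control RNA, so channels are not replicates. How many of all probes separate in this way was not counted. In bulk RNA, fewer expressing cells and less RNA per cell cannot be told apart.

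In the fits across all probes, Prl8a9 was lower in shSnail cells than in shGFP cells by a log2 fold change of -4.49 (SE 0.13, n = 2), a 22.5-fold difference. It was higher in shLoxl2 than in shGFP cells by 1.96 (SE 0.11, n = 2), a 3.88-fold difference. Among the 19752 probes tested, these changes ranked 3rd lowest for shSnail and 73rd highest for shLoxl2. Directly between the arrays with silenced RNA in Cy5, Prl8a9 was lower in shSnail than in shLoxl2 cells by -6.45 (SE 0.16, n = 2 each), an 87.2-fold difference and the 2nd lowest rank. Both comparisons with shGFP share the control RNA. The arrays of the 2 hairpins were scanned in separate sessions with different extraction settings, so for shSnail against shLoxl2 the session and the hairpin cannot be told apart. For shSnail against shGFP, the dye effect removed came from the shLoxl2 arrays, and so from the other session. Across the probes tested, the shSnail ratios had a slope of 0.45 on that dye effect. Without the dye correction Prl8a9 was at -4.43 in shSnail against shGFP cells.

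**Figure D2:**
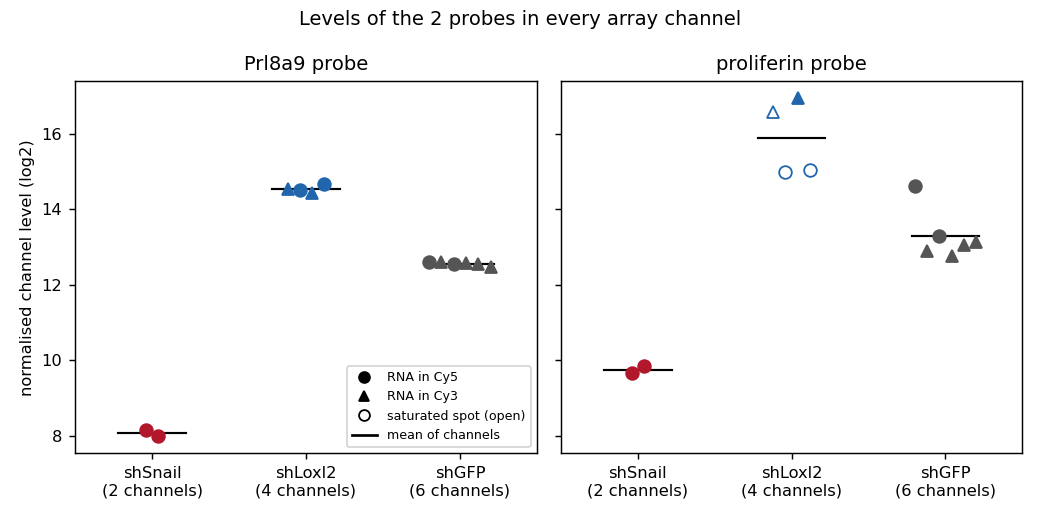
Normalised channel level on the log2 scale for the Prl8a9 probe and the proliferin probe, with 1 point per array channel in shSnail, shLoxl2 and shGFP cells, circles for Cy5, triangles for Cy3, open symbols for saturated spots and a line for the mean. For both probes the 2 shSnail channels lie lowest and the 4 shLoxl2 channels highest, and 3 of the 4 shLoxl2 spots of the proliferin probe were saturated.

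The proliferin probe ran in the same directions, with more spread among the shLoxl2 arrays. Its log2 ratio was -3.39 and -3.29 in shSnail replicates 1 and 2. In shLoxl2 replicate 1 it was 2.10 with the silenced RNA in Cy5 and 1.96 in Cy3, and in shLoxl2 replicate 2 it was 2.28 in Cy5 and 3.65 in Cy3. The value of 3.65 came from the only shLoxl2 array on which the silenced channel was not saturated.

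The proliferin spot read 668 and 829 in the shSnail channels, against 5313 and 5982 in the shGFP channels of the same arrays. In shLoxl2 cells it read 65233 and 65235 in Cy5, both saturated, and 65248, saturated, and 48519 in Cy3. The shGFP channels of those arrays read 6521 and 9071 in Cy3 and 39610 and 16197 in Cy5, none of them saturated. Normalised levels lay between 9.67 and 9.84 on the log2 scale in shSnail channels, between 14.99 and 16.95 in shLoxl2 channels and between 12.75 and 14.61 in shGFP channels. The order was the same as for Prl8a9, with the same limits. The gap between the lowest shLoxl2 and the highest shGFP channel was small beside the spread within either group.

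The fitted log2 fold change of the proliferin probe was -3.03 (SE 0.35, n = 2) for shSnail against shGFP. It was 2.50 (SE 0.22, n = 2) for shLoxl2 against shGFP, a value that takes the saturated spots of 3 of the 4 shLoxl2 arrays as they read, where the array without saturation gave 3.65. The swapped arrays gave means of 2.03 for shLoxl2 replicate 1 and 2.96 for replicate 2. Their dye effects were 0.07 and -0.69, and the shSnail value, which is corrected by the mean dye effect of -0.31, was -3.34 without that correction. These dye effects come from the same swapped arrays, with 3 of 4 shLoxl2 spots saturated, and carry that limit into the value of -3.03. For shSnail against shLoxl2 both shLoxl2 spots in Cy5 were saturated, so only a bound can be given. On the normalised channel levels after background correction, the proliferin level was at least 38.3-fold lower in shSnail cells. The fitted log2 fold change was -5.53 (SE 0.16, n = 2 each), and it was -5.15 without background subtraction, so the bound holds only for its own processing. That SE takes the 2 saturated readings as measured and does not hold their true spread.

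The other prolactin family genes did not move as a block with Prl8a9 and the proliferins. RefSeq lists 26 family genes on chromosome 13, the only chromosome counted, and the array held probes for all of these but Prl2c1, Prl3d2 and Prl3d3. Besides the 2 probes above there were 19 family probes, of which 17 were tested, while Prl3c1 and Prl7a2 were not well above background in any channel. Most of the 17 were dim, with a highest mean spot intensity of 4677 among them. The test was limma's moderated test on the fit across all probes, with Benjamini-Hochberg adjustment and a threshold of 0.05.

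In shLoxl2 against shGFP cells, 4 of the 17 other family probes rose and 0 fell, where 13.8% of all probes changed, 8.01% upward and 5.82% downward. The median log2 fold change was 0.15 over the 17 probes and -0.01 over all probes. In shSnail against shGFP cells, 2 rose and 0 fell, where 21.4% of all probes changed, 8.81% upward and 12.6% downward, and the median was 0.01 against -0.04 over all probes. That count turned on the dye handling and on single samples: it was 0 higher and 4 lower without the dye correction, 0 higher and 2 lower both with a scaled dye effect and on the log ratios computed by the scanner software, 1 higher and 0 lower without shSnail replicate 1, and 0 in either direction without replicate 2. In shSnail against shLoxl2 cells, 2 were higher and 3 lower, where 12.8% of all probes differed, 4.24% higher and 8.56% lower, and the median was -0.20 against -0.04 over all probes. With either shSnail replicate left out, nearly all calls over all probes in that comparison were lost. A call lost that way, here and below, therefore does not set a gene apart from the others.

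Prl2a1, which encodes prolactin-like protein M and is the measured relative in the Prl2 subfamily beside Prl2b1, rose in shLoxl2 cells. Its log2 ratio was 2.54 and 2.85 with shLoxl2 RNA in Cy5 and 3.20 and 2.86 in Cy3. In shSnail replicates 1 and 2 the ratio was -0.71 and -0.70. All 4 shLoxl2 arrays thus lay above both shSnail arrays. The fitted change was 2.86 (SE 0.10, n = 2, adjusted p = 0.000547, limma) in shLoxl2 against shGFP cells, a 7.27-fold rise, and it ran from 1.86 without background subtraction to 3.80 on the scanner's log ratios. In shSnail against shGFP cells it was -0.54 (SE 0.16, n = 2, adjusted p = 0.0509, limma), past no threshold, and in shSnail against shLoxl2 cells it was -3.40 (SE 0.18, adjusted p = 0.0049, limma). The call held under 8 of 8 alternatives for shLoxl2 against shGFP and 10 of 10 for shSnail against shLoxl2. Prl2b1 gave -0.18 in shLoxl2 and -0.29 in shSnail cells and passed neither test. Its probe was well above background in 0 of 4 shLoxl2, 0 of 2 shSnail and 2 of 6 shGFP channels, so these values do not show whether its RNA changed. Whether the Prl2a1 probe, or another family probe, also binds RNA of close relatives such as the proliferins was not tested.

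Prl7b1, which encodes prolactin-like protein N, also rose in shLoxl2 cells and was dim elsewhere. Its ratios were 1.49 and 1.69 in Cy5 and 2.26 and 1.61 in Cy3, so all 4 arrays were higher in shLoxl2 cells. The shLoxl2 spot was well above background on 4 of 4 arrays, and the shGFP spot on 1 of 6. The fitted rise was 1.76 (SE 0.12, n = 2, adjusted p = 0.00166, limma), against 0.66 without background subtraction and 4.46 on the scanner's log ratios. Neither channel of the 2 shSnail arrays was well above background, so no fold is given for shSnail against shGFP. Against shLoxl2, Prl7b1 was lower in shSnail cells by a fitted -2.25 (adjusted p = 0.0119, limma), a call lost with either shSnail replicate left out. With the shSnail spots not well above background, that size depended on the processing and ran from -4.69 on the scanner's log ratios to -0.98 without background subtraction.

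Prl3a1, which encodes prolactin-like protein I, rose in shLoxl2 cells by 1.36 (SE 0.12, n = 2, adjusted p = 0.00324, limma). The 4 shLoxl2 arrays gave ratios of 1.16 and 0.92 in Cy5 and 1.42 and 1.95 in Cy3. The shSnail arrays gave -0.29 and -0.01, below all of these. The fit for shSnail against shGFP was 0.17 and did not pass, and Prl3a1 was lower in shSnail than in shLoxl2 cells by -1.19 (SE 0.19, adjusted p = 0.0245, limma). On the scanner's log ratios neither Prl3a1 call held. Without background subtraction the rise in shLoxl2 cells was 0.48, and the call for shSnail against shLoxl2 was lost, as it was with either shSnail replicate left out.

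The remaining calls turned on dye orientation, on the processing or on single samples. Prl7d1, which encodes proliferin-related protein, an inhibitor of vessel growth, had shLoxl2 ratios of -0.42 and 0.01 in Cy5 and 1.69 and 2.28 in Cy3. Its fitted rise of 0.89 in shLoxl2 cells (SE 0.16, adjusted p = 0.0192, limma) is thus a mean of arrays that differ by orientation, and it was lost without background subtraction, on the scanner's log ratios and without shLoxl2 replicate 2. In shSnail cells Prl7d1 had ratios of -0.37 and -0.11 and a fitted rise of 0.85 (adjusted p = 0.0287, limma), which turned to -0.24 without the dye correction. Prl7a1 had shSnail ratios of -0.35 and -0.21 and a fitted rise of 0.97 (adjusted p = 0.0101, limma), which turned to -0.28 without it. Prl7a1 and Prl5a1 were higher in shSnail than in shLoxl2 cells by 0.88 and 0.81 (adjusted p = 0.0318 and 0.0364, limma). Both calls were lost without background subtraction, on the scanner's log ratios, with swap means and a scaled dye effect, and with either shSnail replicate left out. The lowest values were 0.19 and 0.30. The shLoxl2 ratios of Prl7a1 were -1.22 and -1.10 in Cy5 but 1.09 and 1.60 in Cy3.

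**Figure D3:**
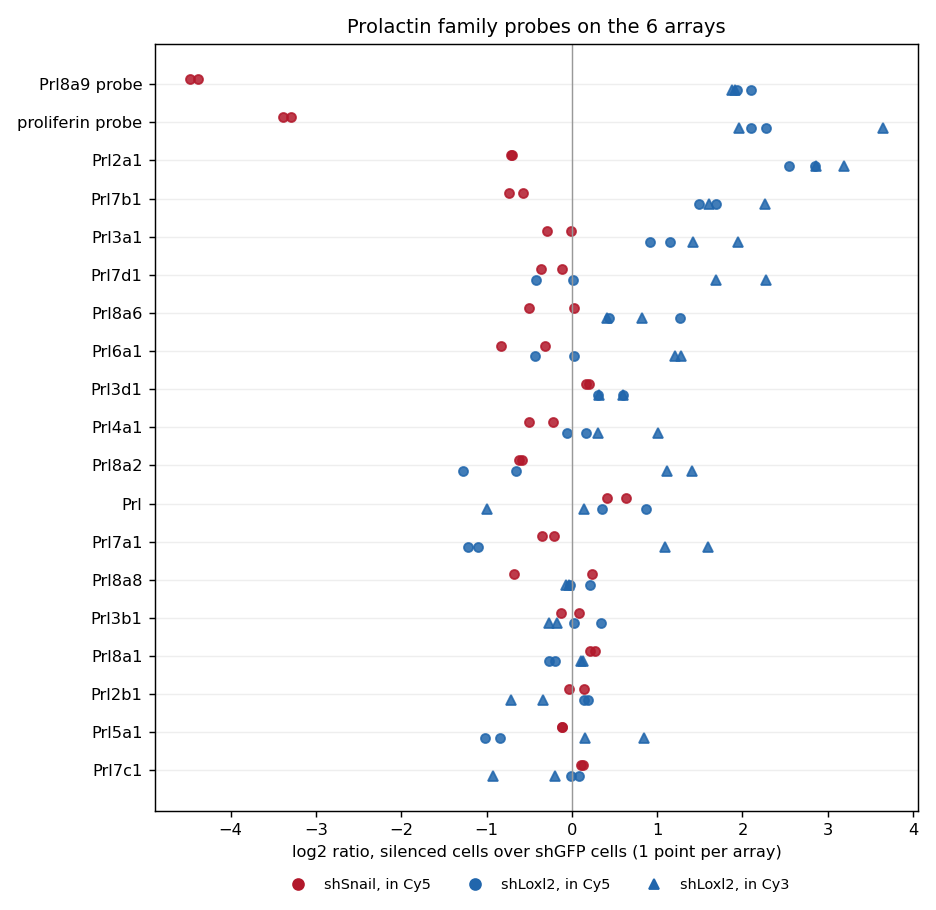
Log2 ratio of silenced over shGFP cells on each of the 6 arrays for the Prl8a9 probe, the proliferin probe and the 17 other family probes tested, with shSnail above shLoxl2 in each row, circles for silenced RNA in Cy5 and triangles for Cy3. Prl8a9 and proliferin are the rows with shSnail ratios below -3, while Prl2a1, Prl7b1 and Prl3a1 lie to the right in shLoxl2 with shSnail ratios between -0.74 and -0.01.

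The genes closest to Prl8a9 by name, Prl8a1, Prl8a2, Prl8a6 and Prl8a8, passed no test in any of the 3 comparisons. Their fitted changes ran from -0.06 to 0.73 in shLoxl2 cells, where Prl8a6 had the highest (adjusted p = 0.0665, limma), and from -0.36 to 0.51 in shSnail cells, both against shGFP. The value of -0.36 was also that of Prl8a6. Its probe was well above background in 2 of 4 shLoxl2, 0 of 2 shSnail and 1 of 6 shGFP channels, so that value does not show whether its RNA changed. The placental lactogens Prl3d1 and Prl3b1, which act through the prolactin receptor, were well above background in all channels. Prl3d1 gave 0.46 and Prl3b1 -0.02 in shLoxl2 cells, and 0.19 and -0.22 in shSnail cells, with no test passed. Prl itself, the pituitary hormone, gave 0.09 and 0.01 in the same 2 comparisons. Prl4a1, Prl6a1 and Prl7c1 also passed no test, and Prl4a1 and Prl6a1 were well above background in 0 of 6 shGFP channels.

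Of the 16 genes of prolactin-type receptors and their signalling, 3 rose and 1 fell in shLoxl2 against shGFP cells, where 13.8% of all probes changed. The median log2 fold change was -0.01, both over the list and over all probes. Socs1, a feedback inhibitor of JAK kinases, rose by 1.26 (SE 0.12, adjusted p = 0.00333, limma), and Stat5a, the transcription factor that relays prolactin signals, by 0.77 (adjusted p = 0.00948, limma). Igf2r, the receptor that proliferin can bind, rose by 0.57 (adjusted p = 0.0247, limma), a call lost when either shLoxl2 replicate was left out. Ghr, the growth hormone receptor, fell by 0.83 on the log2 scale (adjusted p = 0.00922, limma). On the scanner's log ratios the Igf2r and Ghr calls were lost.

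In shSnail against shGFP cells, 0 of these 16 genes rose and 5 fell, where 12.6% of all probes fell, with a list median of -0.28 against -0.04 over all probes. Socs3, another feedback inhibitor, had a log2 fold change of -2.20 (SE 0.14, adjusted p = 0.00127, limma), and Ghr one of -1.39 (adjusted p = 0.0021, limma). Jak2, the kinase bound to the prolactin receptor, fell by 0.91 on the log2 scale (adjusted p = 0.00589, limma), and Igf1r by 1.17 (adjusted p = 0.00928, limma). The fifth was Igf2r. The Igf1r call was lost without shSnail replicate 1, and the list then held 3 lower genes. In shSnail against shLoxl2 cells, 0 were higher and 4 lower, where 8.56% of all probes were lower: Socs3 at -2.12, Igf2r at -1.32, Socs1 at -1.15 and Jak2 at -1.06. With either shSnail replicate left out these 4 calls were lost, as were nearly all calls over all probes. Over the alternatives Socs3 ran from -2.22 to -2.02, Igf2r from -1.41 to -1.19, Socs1 from -1.27 to -0.98 and Jak2 from -1.33 to -0.79. Prlr, the prolactin receptor, was well above background in 0 of 4 shLoxl2, 2 of 2 shSnail and 1 of 6 shGFP channels and passed no test.

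Among 14 regulators linked to proliferin transcription, mainly AP-1 and GATA factors, 13 were tested. In shLoxl2 against shGFP cells 1 rose and 0 fell, where 13.8% of all probes changed, with a median of -0.10. It was Jund, an AP-1 subunit, at 0.78 (SE 0.12, adjusted p = 0.0134, limma), lost without shLoxl2 replicate 1 and on the scanner's log ratios. In shSnail against shGFP cells 0 rose and 5 fell, where 12.6% of all probes fell, with a median of -0.67 against -0.04 over all probes. The 5 were Gata3 at -1.31 (SE 0.13, adjusted p = 0.00184, limma), Junb at -1.38 (SE 0.16, adjusted p = 0.00313, limma), Fosl2 at -1.55 (SE 0.35, adjusted p = 0.025, limma), Cebpb at -0.59 (adjusted p = 0.0433, limma) and Egr1 at -1.22 (adjusted p = 0.0498, limma). The Fosl2 and Cebpb calls were lost on the scanner's log ratios, and that of Cebpb also without background subtraction. Fosl2 ran from -2.03 to -1.07 and Cebpb from -0.73 to -0.38 over the alternatives. Without shSnail replicate 1 the count was 2 lower, and without the dye correction it was 8 lower and 1 higher. Gata3 and Junb were also lower in shSnail than in shLoxl2 cells, at -1.52 and -0.99, the 2 of 13 that passed there, where 12.8% of all probes did. Both calls were lost with either shSnail replicate left out, as were nearly all calls over all probes. Over the alternatives Gata3 ran from -1.56 to -1.46 and Junb from -1.14 to -0.76. Egr1 here, and Igf2r among the receptors in shSnail against shGFP cells, were beyond the 4 genes by smallest p of their list and were named after their values were seen.

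The trophoblast list, 38 genes of which 30 were tested, was mixed. In shLoxl2 against shGFP cells 2 rose and 1 fell, where 13.8% of all probes changed, with a median of -0.01. Rhox5, a homeobox gene of the placenta and testis, rose by 3.19 (SE 0.26, adjusted p = 0.00239, limma), Phlda2, an imprinted placental growth regulator, rose by 0.86 (adjusted p = 0.0101, limma), and Esrrb fell by 0.56 (adjusted p = 0.0463, limma), a call that 5 of 7 alternatives lost. In shSnail against shGFP cells 3 rose and 4 fell, where 21.4% of all probes changed, with a median of 0.05. The count was 3 higher and 7 lower without the dye correction, and 2 higher and 2 lower with either shSnail replicate left out. Rhox5 rose by 4.38 (SE 0.48, adjusted p = 0.00253, limma) and Krt8 by 1.12 (adjusted p = 0.00354, limma), although the shGFP spot of Krt8 was well above background in 2 of 6 channels. Tfap2c, a trophoblast and epithelial transcription factor, was at -1.70 (SE 0.24, adjusted p = 0.00499, limma), beside Gata3. In shSnail against shLoxl2 cells 3 were higher, Rhox5, Krt8 and the cathepsin Ctsr, and 1 was lower, Gata3, where 12.8% of all probes differed. All 4 calls were lost with either shSnail replicate left out, as were nearly all calls over all probes. Over the alternatives Rhox5 ran from 1.04 to 1.24, Krt8 from 0.64 to 3.19 and Ctsr from 0.16 to 0.99. Rhox5 was thus higher under both hairpins, whereas Prl8a9 was higher under 1 of them and lower under the other.

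Of 15 tested growth and vessel factors, 1 rose and 2 fell in shLoxl2 against shGFP cells, where 13.8% of all probes changed, with a median of -0.05. The EGF receptor ligands Ereg and Areg were at -2.29 (SE 0.20, adjusted p = 0.00269, limma) and -2.04 (SE 0.26, adjusted p = 0.0072, limma), and Serpinb9, a granzyme inhibitor, was at 0.67 (adjusted p = 0.0178, limma). On the scanner's log ratios the Areg and Serpinb9 calls were lost, and that of Serpinb9 was also lost without shLoxl2 replicate 2. In shSnail against shGFP cells 1 rose and 5 fell, where 21.4% of all probes changed, with a median of -0.40. Vegfa, the main vessel growth factor, was at -2.17 (SE 0.26, adjusted p = 0.00326, limma) and the secreted protein Spp1 4.01-fold lower (adjusted p = 0.00405, limma), with Ereg at -1.75 and Areg at -2.23. In shSnail against shLoxl2 cells 0 were higher and 3 lower, where 12.8% of all probes differed: Spp1 at -2.29, Vegfa at -1.55 and Serpinb9 at -1.08. None of these calls held with either shSnail replicate left out, where nearly all calls over all probes were lost. Over the alternatives Spp1 ran from -2.73 to -1.86, Vegfa from -1.87 to -1.22 and Serpinb9 from -1.52 to -0.68.

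The genes nearest to the proliferin genes and to Prl8a9 in RefSeq order, 3 measured genes on each side, are described by their own changes. The 2 probes were selected on their low values in shSnail cells, so their sizes are not set against those of the neighbours. Gpr137b, a lysosomal membrane protein gene just after the proliferin genes, rose by 0.67 (SE 0.11, adjusted p = 0.0152, limma) in shLoxl2 against shGFP cells and was at -0.78 (SE 0.14, adjusted p = 0.0102, limma) in shSnail against shGFP cells. Both calls were lost when replicate 1 of the hairpin was left out. Mboat1, an acyltransferase gene after Prl8a9, was lower under both hairpins, at -2.40 (SE 0.15, adjusted p = 0.00127, limma) in shSnail cells and -0.54 (adjusted p = 0.0365, limma) in shLoxl2 cells. Lgals8 fell in shSnail cells by 0.67, a call lost with either shSnail replicate left out. Edaradd rose in shLoxl2 cells by 0.65, and its call and that of Mboat1 in shLoxl2 cells were lost without shLoxl2 replicate 1. Ero1b, Nid1, Lyst, Dcdc2a, Nrsn1, Hdgfl1, Sox4 and E2f3 passed no test, and Sox4 had -1.47 in shSnail cells (adjusted p = 0.0539, limma).

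Likeness to each probe was measured by the Euclidean distance between the 6 log2 ratios, over 19719 probes. The Pearson correlations given describe the 6 arrays, which share the shGFP RNA and hold only 2 hairpins, and 3 of the 4 shLoxl2 ratios of the proliferin probe come from saturated spots, which enter every distance to it. Prl8a9 and the proliferin probe were each the 4th nearest to the other, at a distance of 2.37 and r = 0.98. Outside the family, the probes nearest to Prl8a9 were S100a9 at 1.86, S100a8 at 2.21, Neat1 at 2.35, Tslp at 2.65 and Acot1 at 3.15. Those nearest to the proliferin probe were Tslp at 1.24, Sbsn at 1.90, S100a9 at 1.97, Sprr2h at 2.55 and Mmp3 at 2.80. Correlations ran from 0.964 to 0.998 over both lists.

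S100a9, a calprotectin subunit, had ratios of -3.61 and -3.97 on the shSnail arrays, and of 2.98 and 2.63 in Cy5 and 2.90 and 2.38 in Cy3 on the shLoxl2 arrays. Tslp, an epithelial cytokine, had -3.23 and -3.39 on the shSnail arrays and 2.48, 3.41, 2.11 and 3.43 on the shLoxl2 arrays. Every gene of both lists was below 0 on both shSnail arrays and above 0 on all 4 shLoxl2 arrays. These signs largely follow from the choice of genes by nearness to 2 probes that have them. S100a8, the other calprotectin subunit, was nearer to 0 in shLoxl2 cells, with its lowest ratio at 0.19, and had -4.24 and -4.73 on the shSnail arrays. The others were Neat1, a long noncoding RNA, Sbsn and Sprr2h, which encode proteins of the differentiating epidermis, Mmp3, a secreted metalloprotease, and Acot1, a thioesterase of fatty acid metabolism. Mmp3 had the smallest shSnail ratios of the 8 genes, at -1.67 and -1.82, and Neat1 had shLoxl2 ratios from 0.43 to 1.61.

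**Figure D4:**
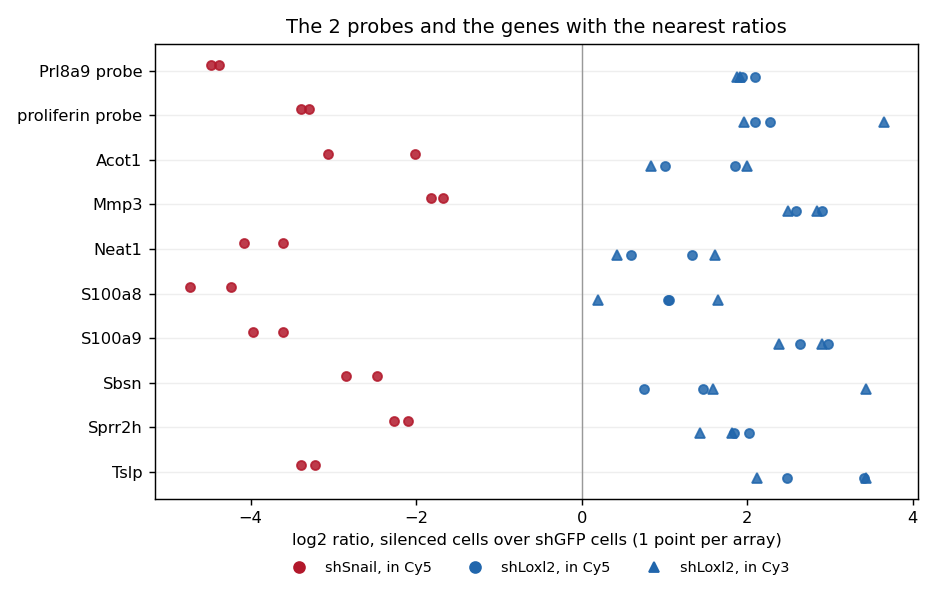
Log2 ratio of silenced over shGFP cells on each array for the 2 probes and the 8 genes nearest to them, with shSnail above shLoxl2 in each row, circles for silenced RNA in Cy5 and triangles for Cy3. Every row has both shSnail points left of 0 and all 4 shLoxl2 points right of 0, which largely follows from choosing genes near the 2 probes.

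Neither silenced gene checked the labels. The Loxl2 probe was at 0.11 (SE 0.12, adjusted p = 0.59, limma) in shLoxl2 against shGFP cells, and the Snai1 probe was well above background in none of the 6 silenced channels and in 2 of 6 shGFP channels. Where these probes lie relative to the hairpins' targets was not analysed here. Of the 8 keratinocyte and epithelial markers, Krt5, Krt14, Krt18, Trp63 and Itga6 were well above background in all 12 channels, Epcam in 8, and Krt8 and Cdh1 in 6 each. Of the 8, 2 rose and 1 fell in shLoxl2 against shGFP cells, where 13.8% of all probes changed. In shSnail against shGFP cells 1 rose and 3 fell, where 21.4% of all probes changed. In shSnail against shLoxl2 cells 1 was higher and 4 were lower, where 12.8% of all probes differed. Their part in the results was not tested. Of 6 trophoblast markers 0 rose and 0 fell in any comparison, with normalised levels from 5.90 to 11.90 over the list. Prl3d1 and Prl3b1 were well above background in all 12 channels and Hand1 in 3 of 12. Ctsq was so in 3 of 4 shLoxl2, 2 of 2 shSnail and 4 of 6 shGFP channels. For Tpbpa the counts were 2, 2 and 5, and for Gcm1 2, 0 and 2. Of 3 tested leukocyte and 2 tested endothelial markers 0 passed in any comparison, and of 3 fibroblast markers 1 fell against shGFP under each hairpin. The leukocyte marker Cd3e was well above background in all 12 channels. The same shares of all probes apply to these short lists. On arrays with silenced RNA in Cy5, the ratios of shSnail and shLoxl2 arrays correlated across all probes between 0.34 and 0.53. With the scanner software's log ratios the median of all probes shifted to -0.28 in shSnail against shGFP and in shSnail against shLoxl2. For shSnail against shGFP the calls then split into 1014 higher and 3173 lower, where the main values gave 1741 higher and 2485 lower. For shSnail against shLoxl2 they split into 424 higher and 1928 lower, where the main values gave 837 higher and 1690 lower. On that scaling Prl8a9 was at -4.92 and the proliferin probe at -3.14 in shSnail against shGFP cells.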

How the data were processed

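RNA of HACA cells was amplified, labelled and hybridised to Agilent arrays, per the labels' protocols. The deposited scanner files hold spot intensity values of both channels and log10 ratios of Cy5 over Cy3 made by Agilent's Feature Extraction software, in release 9.5.1.1 (per the file headers) or 6.1.1 (per the submitters' processing notes). The authors' deposited value table holds those log10 ratios rounded. Its 2 shSnail columns both matched the scanner file of shSnail replicate 1 within 0.006 at 100% of spots, so it served as an alternative with 1 shSnail array. No other step is given in the sources used here.

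The labelled dyes set each ratio's direction. Mean intensities were corrected by normexp on local background medians (offset 50), normalised by loess within arrays with 736 control spots and outlier spots at weight 0, and averaged per probe, in limma 3.58.1 and R 4.3.3. Channel levels came from Aquantile normalisation. Saturated spots were kept. Of 20868 probes, 19752 were well above background in a channel on at least 2 arrays and were tested. Between 85.2% and 92.3% of probes were well above background in red and between 55.5% and 74.7% in green, and the number of arrays limits the precision.

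For shLoxl2 against shGFP, the swapped arrays of a replicate were averaged. For shSnail against shGFP, each probe's dye effect, taken from the shLoxl2 swaps, was a term of the fit. For shSnail against shLoxl2, the 4 Cy5 arrays were compared. Errors are limma's moderated standard errors, and p-values were adjusted by Benjamini-Hochberg over all probes tested. The fits were run on simulated data that had the same dye effect at full size on every array. Such data cannot check whether the dye effect of the shLoxl2 swaps holds on the shSnail arrays. In the real data the slope of the shSnail ratios on that dye effect was 0.45.

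Gene names came from RefSeq accessions for 14711 probes, current symbols for 2824 and synonyms for 1303, and 2030 kept the file's name. Bounds for saturated spots take the spot's value. Motifs were searched on both strands, and alignments were global, in Biopython 1.88. The genes and lists were chosen with earlier results of these data known. Named were all family probes tested, up to 4 genes per list and comparison by smallest p among those past the threshold, the 5 nearest genes to each probe, and 3 measured genes on each side of each locus. Alternatives changed the background correction, scaling, filter, dye handling, replicate block and the samples included.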

Additional observations from a re-analysis of the deposited data

How the results depend on the processing

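Over 62 alternative values of the 2 probes in the 3 comparisons, 62 kept their direction. The probes were selected on their values on these arrays, so that count is a description and no independent check. The filter and replicate block alternatives left their values unchanged. The shSnail against shGFP value of the proliferin probe was -2.59 without background subtraction, -3.14 with the scanner software's log ratios, -3.34 without dye correction, -3.20 with a scaled dye effect and -3.20 in the authors' value table. That of Prl8a9 was -4.02 without background subtraction, -4.92 with the scanner's log ratios and -4.85 in the value table. For shLoxl2 against shGFP, Prl8a9 was at 1.86 without background subtraction, 2.01 on Cy5 arrays alone and 1.90 on Cy3 arrays alone, and the proliferin probe was at 3.65 on the only unsaturated array, an alternative chosen after seeing the data. For shSnail against shLoxl2, the proliferin probe was at -5.15 without background subtraction and -5.70 with swap means and a scaled dye effect. There Prl8a9 was at -5.87 without background subtraction, -6.89 with the scanner's log ratios, and between -6.58 and -6.32 with a replicate left out. Counts of calls were 2731 for shLoxl2 against shGFP (774 with the scanner's log ratios, 1737 to 2792 with a replicate left out), 4226 for shSnail against shGFP (1585 to 2002) and 2527 for shSnail against shLoxl2 (39 to 4308, with 47 and 39 when a shSnail replicate was left out). With a shSnail replicate left out, the lone sample is assumed to vary like the other group. The calls of Prl7a1 and Prl7d1 in shSnail against shGFP cells reversed to -0.28 and -0.24 without dye correction. The replicate numbers were used as a block only in shSnail against shLoxl2, where they gave 2720 calls and left Prl8a9 at -6.45 and the proliferin probe at -5.53. With 2 pairs, deviations of same-numbered arrays correlated at 0.21, and with so few pairs the numbers were not treated as pairing the samples. The cause of these shifts was not tested. Saturation limits the proliferin value in shLoxl2 cells, and signals near background limit most other family probes.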
